A study of Homo sapiens with 4 samples.

Results

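Cassette exons of 10 genes with known epithelial-mesenchymal splicing switches were examined in MDA-LM2, a derivative of the human breast cancer line MDA-MB-231 that colonises the lung readily. The genes were CD44, ENAH, STX2, APLP2, CTNND1, MAP3K7, NUMB, SLK, EXOC7 and CSNK1G3. Included were the skipped-exon events whose skipped exon, or both flanking exons, matched a GENCODE release 29 exon of 1 of these genes on the same strand. This gave 79 events of 48620 listed for either group, 77 through the skipped exon and 2 through the flanking exons. Of the 79 events, 78 were listed for both groups and fell on 61 different skipped exons. The remaining event, a 39-nt exon of EXOC7, was listed in the scrambled oligo group only. There it had 0 reads that include the exon and 4 that skip it. Its percent spliced in of 0.17 (credible interval 0.02 to 0.44) thus rests on no read that includes the exon.

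MDA-LM2 cells had been transfected by lipofection with an RNA called the SSE mimetic (2 samples) or with a scrambled oligo (2 samples). The labels give no other difference between the groups, and no dose or time. SSE stands for a structured RNA element that acts as a splicing enhancer, and the comparison asks what its mimetic does to the transcriptome. The deposited tables hold 1 pooled read set per group, named here the mimetic pool and the scrambled pool, so there is no value per sample, no spread between replicates and no test across samples.

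Many genes with a part in adhesion, polarity and the cytoskeleton are spliced differently in epithelial and mesenchymal cells. The splicing regulators ESRP1 and ESRP2 favour epithelial forms, while RBFOX2 and QKI favour many mesenchymal ones. The receptor CD44 carries variable exons in epithelial cells and loses them in mesenchymal cells. ENAH, an actin regulator, includes its exon 11a in epithelial cells, and the catenin gene CTNND1 uses an upstream start codon exon in mesenchymal cells.

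The exons on which the results turn are shown here as GENCODE release 29 transcripts give them, in GRCh38 (hg38), 5′ to 3′ on the strand of the gene. Capitals mark the cassette exon and lower case marks the 12 nt of spliced neighbouring exon on each side. The STX2 exon lies at chr12:130795995-130796120 on the minus strand and is shown as far as its stop codon, TGA. The first APLP2 exon, at chr11:130123612-130123779 on the plus strand, encodes the Kunitz protease inhibitor domain and is the known switch exon. The second, at chr11:130135563-130135715, is numbered exon 13 in its transcript and is not the switch exon. The ENAH exon 11a lies at chr1:225504991-225505053 on the minus strand. The CD44 variable exons v7 and v10 lie on the plus strand at chr11:35206112-35206243 and chr11:35211246-35211449.
STX2 C-terminal exon, coding part: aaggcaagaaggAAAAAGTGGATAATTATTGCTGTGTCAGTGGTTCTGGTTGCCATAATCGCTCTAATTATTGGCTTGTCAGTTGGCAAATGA
APLP2 Kunitz exon: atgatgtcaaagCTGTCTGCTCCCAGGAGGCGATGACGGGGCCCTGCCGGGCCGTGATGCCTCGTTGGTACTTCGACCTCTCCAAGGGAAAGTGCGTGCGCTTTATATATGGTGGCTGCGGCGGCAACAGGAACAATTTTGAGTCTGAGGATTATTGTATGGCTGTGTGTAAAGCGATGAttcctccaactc
APLP2 exon 13: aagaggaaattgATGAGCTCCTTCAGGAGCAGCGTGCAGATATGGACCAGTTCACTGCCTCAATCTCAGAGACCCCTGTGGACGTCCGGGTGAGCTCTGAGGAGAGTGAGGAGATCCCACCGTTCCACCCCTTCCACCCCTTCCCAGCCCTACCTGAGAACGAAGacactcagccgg
ENAH exon 11a: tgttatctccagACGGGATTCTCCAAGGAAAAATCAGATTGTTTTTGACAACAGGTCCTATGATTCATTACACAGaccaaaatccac
CD44 variable exon v7: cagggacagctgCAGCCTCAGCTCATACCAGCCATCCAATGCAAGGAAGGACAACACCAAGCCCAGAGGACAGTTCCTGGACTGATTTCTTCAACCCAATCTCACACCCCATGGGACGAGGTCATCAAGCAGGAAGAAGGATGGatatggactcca
CD44 variable exon v10: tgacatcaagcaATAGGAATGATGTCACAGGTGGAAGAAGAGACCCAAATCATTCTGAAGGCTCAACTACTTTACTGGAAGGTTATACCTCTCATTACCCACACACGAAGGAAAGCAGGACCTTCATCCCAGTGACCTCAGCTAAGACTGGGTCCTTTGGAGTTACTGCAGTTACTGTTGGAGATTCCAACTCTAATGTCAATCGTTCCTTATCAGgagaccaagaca

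Each exon is described by its percent spliced in (Ψ), the authors' estimate of the fraction of transcripts that keep the exon, with its 95% credible interval. Ψ rests on inclusion reads (exon or its junctions), skipping reads (the junction between both neighbours) and shared reads, which fit either isoform. A further class of reads fits neither isoform, for example intronic reads. Testing required 10 or more isoform-specific reads, inclusion plus skipping, in both groups. A call required a Bayes factor of 10 or more in the authors' deposited table and a difference in Ψ of 0.1 or more.

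Over all events in both groups, reads in the mimetic pool were 0.225 times the scrambled number for inclusion, 0.143 times for skipping, 0.272 times for shared and 0.651 times for neither. Reads that fit neither isoform were 95.3% of reads in the mimetic pool and 88.8% in the scrambled pool. Isoform-specific reads per tested exon were at a median of 19 in the mimetic pool and 78 in the scrambled pool. The part of these differences in the results below was not tested. All intervals express counting error alone. No molecular identifiers are mentioned, so several reads can stem from 1 molecule. Reads at cassette events also gave the only view of cell type. Of 15 epithelial marker genes 8 had a listed event, with a median over the 15 of 5 reads in the mimetic pool and 6 in the scrambled pool at the best-covered event. Of 14 mesenchymal markers 9 had one, with medians over the 14 of 23 and 194 reads in the same order. KRT8 was the epithelial marker with tested exons, while the mesenchymal markers FN1, ZEB1 and AXL each had some. The epithelial regulators had few isoform-specific reads at their best-covered exon, 5 in the mimetic pool and 11 in the scrambled pool for ESRP1, and 3 in each group for ESRP2.

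Among the 61 member exons, 30 in 7 genes were tested. Exons called were 2 higher with the SSE mimetic, 1 in STX2 and 1 in APLP2, and 0 lower, which leaves 28 tested exons that were not called. Over all 8228 tested exons, 3.1% were called higher, 0.887% lower and 3.99% in either direction. A count of 2 among 30 member exons is near that background. The median difference in Ψ of the 30 member exons was 0.005, with 15 above 0, 1 at 0 and 14 below, and it was -0.03 over all tested exons. The other 31 member exons had too few reads in a group. CD44 had 11 of its 15 exons tested, APLP2 9 of 9, EXOC7 4 of 7, CTNND1 2 of 7, NUMB 2 of 8, STX2 1 of 3 and CSNK1G3 1 of 6. ENAH with 3 exons, MAP3K7 with 2 and SLK with 1 had none tested.

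The known switch exons numbered 18 in 9 genes, counting the main annotated form of each. Their Ψ was mostly low in both groups, with a median of 0.11 in the mimetic pool and 0.07 in the scrambled pool. The medians over all tested exons were 0.82 and 0.89 in the same order, whereas the 18 include exons under the read minimum. The lengths of 17 of the 18 were a multiple of 3, which by itself keeps the reading frame. That share was 66.7% among the 39 member exons outside the switch exons and 41.3% among all tested exons. The exception was the CTNND1 start codon exon, of 289 nt. Of the 18, 10 were tested and 1, in STX2, was called. Of the 18 differences 14 were above 0 and 4 below, with a median of 0.03.

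That direction was common to weakly included exons in general. Among all 1311 tested exons with a scrambled Ψ under 0.2 the median difference was 0.05 and 86.1% were above 0. Among the 5192 with a scrambled Ψ of 0.8 or more the median was -0.06 and 89.0% were below 0. Members ran the same way, with 11 of 14 tested exons above 0 in the low range (median 0.015) and 11 of 11 below 0 in the high range (median -0.02). Since these ranges are set by the scrambled Ψ itself, the counts are descriptions only.

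**Figure D1:**
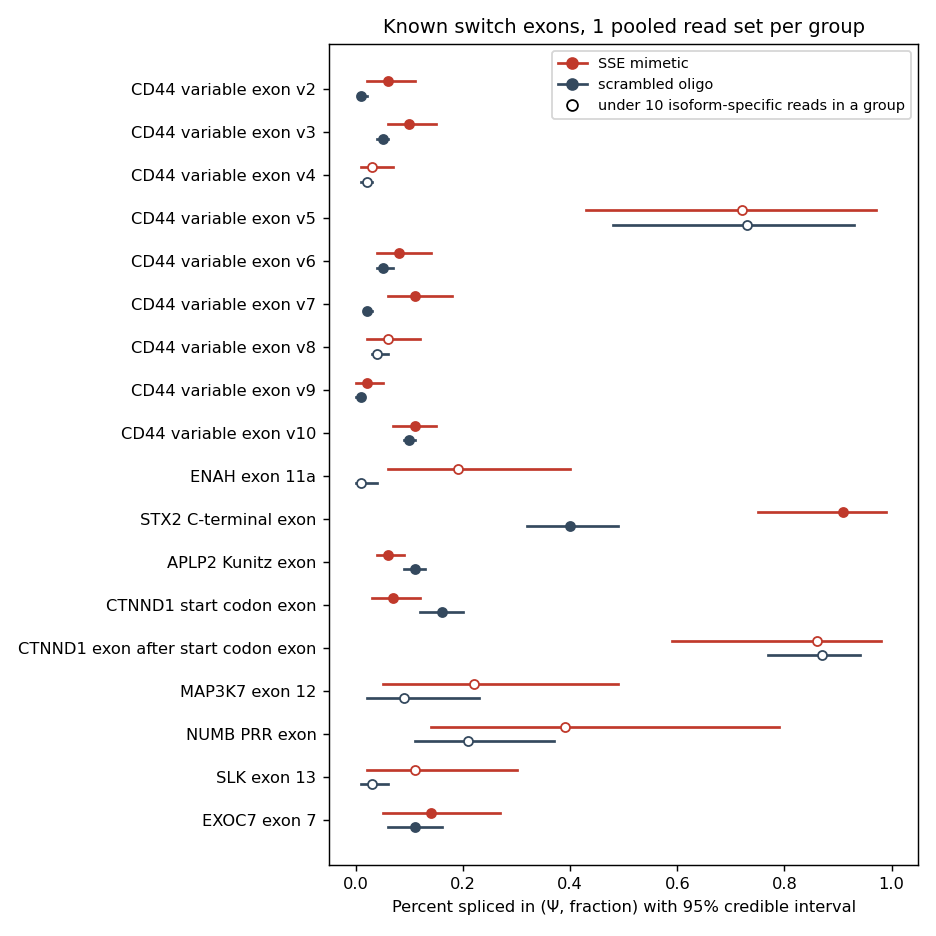
Percent spliced in (x axis, a fraction) with its 95% credible interval for the 18 known switch exons, SSE mimetic above scrambled oligo for each exon. Open points had under 10 isoform-specific reads in a group. The STX2 exon is the one with a wide gap, 0.91 against 0.40, and 14 of the 18 lie under 0.2 in the scrambled pool.

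STX2 encodes syntaxin 2 (epimorphin), a SNARE protein of membrane fusion, and its switch replaces the C-terminal membrane anchor. The switch exon had a Ψ of 0.91 (0.75 to 0.99) in the mimetic pool and 0.40 (0.32 to 0.49) in the scrambled pool. It had 17 inclusion, 0 skipping and 125 shared reads in the mimetic pool. With the scrambled oligo these were 53, 57 and 665. The junction that skips the exon was thus frequent in the scrambled pool and unseen in the mimetic pool. In the authors' deposited table the difference was 0.51 and the Bayes factor stood at the program's cap of 1e12.

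The share of inclusion among isoform-specific STX2 reads was 100% in the mimetic pool (95% Clopper-Pearson interval 80.5% to 100%) and 48.2% in the scrambled pool (38.6% to 57.9%). By the approximate limit of 3 divided by the number of reads, 0 of 17 skipping reads still allow a skipping share of up to 17.6%. That is slightly below what the Clopper-Pearson interval allows. A two-sided Fisher's exact test of inclusion against skipping reads gave p = 2.26e-05 and an adjusted p of 0.00535 (Benjamini-Hochberg over 8228 exons). It compares these read sets, not the conditions. STX2 was the only member of the 30 to pass it, against 83 exons, or 1.01%, of all tested. Unadjusted p-values under 0.05 were found for 6 of the 30 and for 453 of all 8228. The 6 include CD44 v3 and its 99-nt form, which overlap and use the same skipping reads. An exon without skipping reads in either pool cannot pass, which holds for 9 of the 30 and for 4509 of all 8228. The member and overall counts are therefore not like for like. As the sequence above shows, the exon adds 78 coding nt and a stop codon. When it is skipped, the coding sequence ends with 75 nt of the next exon, which is 2377 nt long in the event. The other STX2 exons had 5 isoform-specific reads each in the mimetic pool. Their Ψ was 0.16 in the mimetic pool and 0.05 in the scrambled pool for a 156-nt exon, and 0.19 and 0.01 in the same order for a 134-nt exon.

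APLP2 encodes an amyloid precursor-like protein, and its switch exon adds the Kunitz protease inhibitor domain. The Kunitz exon was not called. Its Ψ was 0.06 (0.04 to 0.09) in the mimetic pool and 0.11 (0.09 to 0.13) in the scrambled pool. It had 26 inclusion, 52 skipping and 571 shared reads in the mimetic pool, and 139, 142 and 1554 in the scrambled pool. Inclusion made up 33.3% (Clopper-Pearson 23.1% to 44.9%) of its isoform-specific reads in the mimetic pool and 49.5% (43.5% to 55.5%) in the scrambled pool. The Bayes factor of the authors' deposited table was 8.29 and the difference -0.05, both short of the thresholds. Fisher's exact test gave p = 0.0144 unadjusted and 0.413 adjusted.

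The APLP2 exon that was called higher is exon 13, of 153 nt, which is coding and is not the switch exon. Its Ψ was 0.82 (0.69 to 0.91) in the mimetic pool and 0.41 (0.36 to 0.47) in the scrambled pool, with the Bayes factor of the authors' deposited table at its cap of 1e12. Skipping reads were rare in both pools. There were 144 inclusion, 5 skipping and 74 shared reads in the mimetic pool, and 305, 18 and 491 in the scrambled pool. The inclusion share of isoform-specific reads was 96.6% (Clopper-Pearson 92.3% to 98.9%) in the mimetic pool and 94.4% (91.3% to 96.7%) in the scrambled pool, and the adjusted p of Fisher's exact test was 1. What differed was the number of shared reads per inclusion read, 0.514 in the mimetic pool and 1.61 in the scrambled pool. Over all tested exons with such reads, the median ratio of that number between the groups was 0.942 (quartiles 0.557 and 1.47). Without the shared reads, a 2-isoform model chosen after seeing the data gave a difference in Ψ of 0.040, against 0.413 with them.

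Next to it, the 36-nt alternative exon of APLP2 had a Ψ of 0.55 (0.44 to 0.67) in the mimetic pool and 0.65 (0.57 to 0.73) in the scrambled pool. It had 46 inclusion and 21 skipping reads in the mimetic pool and 126 and 38 in the scrambled pool, and was not called. The 6 remaining APLP2 exons lay at either end of the scale. Near the start of the gene, 3 exons were at 0.01 to 0.02 in the mimetic pool and at 0.00 in the scrambled pool. The exons of 174, 189 and 124 nt, of which the first and second overlap, were at 0.96 to 0.99 in the mimetic pool and 0.97 to 1.00 in the scrambled pool.

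**Figure D2:**
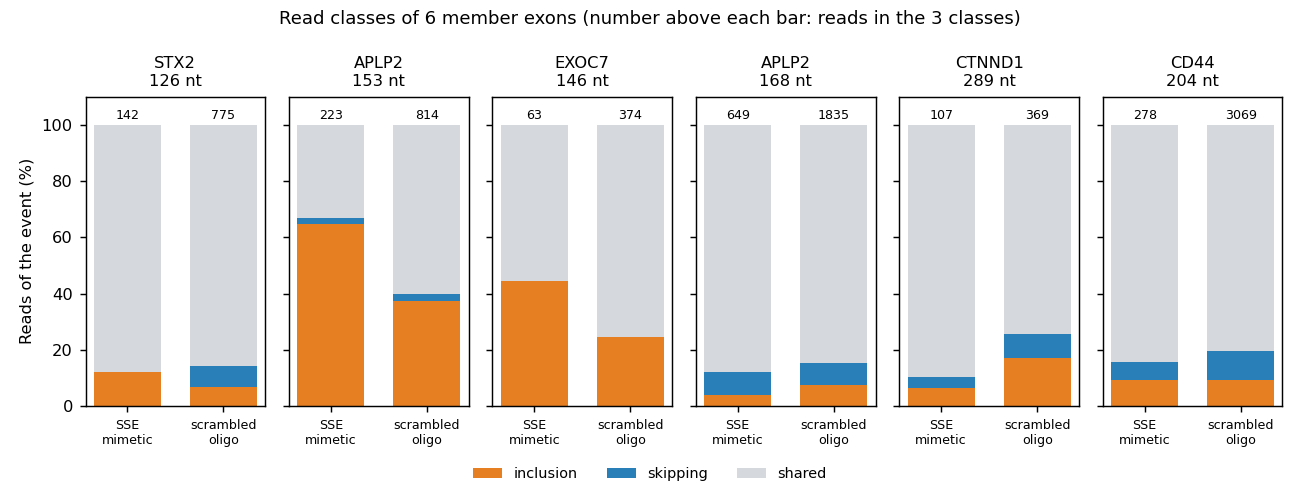
Share of inclusion, skipping and shared reads (y axis, percent of the reads in these 3 classes) at 6 member exons, SSE mimetic left and scrambled oligo right. The number above each bar is the reads in it. Skipping reads are absent from the STX2 bar of the mimetic pool and make up a visible part of the scrambled bar, whereas in the APLP2 153-nt and EXOC7 146-nt exons the bars differ in the shared part.

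CD44 encodes the hyaluronan receptor. The 231-nt constant exon before the variable region was the upstream neighbour in the events kept for v2 to v4 and v6 to v10. Their Ψ was 0.11 or less in both pools. That low Ψ does not rest on skipping reads alone. At v4, v6, v7 and v8 inclusion reads outnumbered skipping reads in both pools. For v6 these were 9 and 2 in the mimetic pool and 64 and 7 in the scrambled pool, beside 236 and 2487 shared reads. Without shared reads the 2-isoform model gave v6 a Ψ of 0.709 and 0.847 in the same order. Between variable neighbours, v5 had a Ψ of 0.72 (0.43 to 0.97) in the mimetic pool and 0.73 (0.48 to 0.93) in the scrambled pool. The best-covered was v10, the last variable exon, with a Ψ of 0.11 (0.07 to 0.15) in the mimetic pool and 0.10 (0.09 to 0.11) in the scrambled pool. It had 26 inclusion, 18 skipping and 234 shared reads in the mimetic pool, and 290, 306 and 2473 in the scrambled pool. Inclusion reads were 59.1% of its isoform-specific reads in the mimetic pool (Clopper-Pearson 43.2% to 73.7%) and 48.7% in the scrambled pool (44.6% to 52.8%). These intervals meet, and the exon was not called. Measured between v9 and the constant exon, v10 had a Ψ of 0.87 (0.64 to 0.99) in the mimetic pool and 0.95 (0.90 to 0.98) in the scrambled pool. With a 138-nt form of the upstream constant exon, its Ψ was 0.35 (0.20 to 0.54) in the mimetic pool and 0.52 (0.45 to 0.61) in the scrambled pool. That difference was -0.17, with a Bayes factor of 1.1 in the authors' deposited table. The sign of the v10 difference thus turned with the neighbour chosen. In the best-covered event, v10 inclusion reads in the mimetic pool were 0.0897 times the scrambled number. Its skipping reads were 0.0588 times and its shared reads 0.0946 times, each a smaller ratio than over all events. The tables hold no gene expression, so these are read ratios at an event.

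The v7 exon came nearest to a call among the variable exons by its Bayes factor. Its Ψ was 0.11 (0.06 to 0.18) in the mimetic pool and 0.02 (0.02 to 0.03) in the scrambled pool, and these intervals do not meet. The Bayes factor of the authors' deposited table was 12.06 and the difference 0.09, just under the minimum of 0.1. It had 13 inclusion and 2 skipping reads in the mimetic pool and 30 and 7 in the scrambled pool, and Fisher's exact test gave p = 1. Per kb of exon, v7 had 98.5 inclusion reads in the mimetic pool, where the introns of the event had 92.7 reads per kb that fit neither isoform. With the scrambled oligo these densities were 227 per kb of exon and 290 per kb of intron. After subtraction of the intron density, the 2-isoform model gave a difference of 0.0137. Measured between v6 and v8, v7 had a Ψ of 0.80 (0.57 to 0.96) in the mimetic pool and 0.56 (0.37 to 0.79) in the scrambled pool, from 14 and 33 inclusion reads. That difference was 0.24, with a Bayes factor of 1.28 in the authors' deposited table, so this event was not called either.

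The v3 exon had a Ψ of 0.10 (0.06 to 0.15) in the mimetic pool and 0.05 (0.04 to 0.06) in the scrambled pool. It had 15 inclusion reads against 18 across the skipping junction in the mimetic pool, and 96 against 306 in the scrambled pool. Fisher's exact test gave p = 0.0112 unadjusted and 0.358 adjusted. The v2 exon had 6 inclusion and 6 skipping reads in the mimetic pool and 14 and 59 in the scrambled pool, for a Ψ of 0.06 and 0.01 in the same order. Its Fisher's exact test gave p = 0.0299 unadjusted and 0.665 adjusted. At v2 and v3 inclusion reads thus took a larger share in the mimetic pool, in neither case past the adjusted threshold. Per kb of exon, v2 had 46.5 inclusion reads in the mimetic pool and 109 in the scrambled pool. Both lay below the 112 and 418 reads per kb of its introns that fit neither isoform. At v3 the exon density was the higher, 119 against 84.4 in the mimetic pool and 762 against 253 in the scrambled pool. After subtraction of the intron density, the 2-isoform model gave differences of 0.00769 for v2 and 0.00136 for v3. A shorter form of v3, of 99 nt, had 3 inclusion reads in the mimetic pool and 4 in the scrambled pool beside the same 18 and 306 skipping reads (Fisher's exact test, p = 0.00657 unadjusted and 0.248 adjusted). The v6 exon had a Ψ of 0.08 in the mimetic pool and 0.05 in the scrambled pool, and v9 of 0.02 and 0.01. The v4, v5 and v8 exons were under the read minimum, with 2, 7 and 5 inclusion reads in the mimetic pool.

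Counting the second annotated forms of v3, v5 and v7, CD44 had 12 variable exon forms, of which 8 were tested and none called. In the event kept for each, all 8 differences were above 0, from 0.01 to 0.22. Other events of v10 had differences below 0. The kept events of v3, its 99-nt form, v9 and v10 use the same skipping junction and so share their skipping and shared reads. The same holds for the kept v6 and v7 events. A 129-nt form of v7 overlaps v7. All of the 8 except that form have the 231-nt constant exon as upstream neighbour. The 8 differences are therefore not independent of each other. The introns of a CD44 event span other variable exons, so their read density also holds exonic reads.

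**Figure D3:**
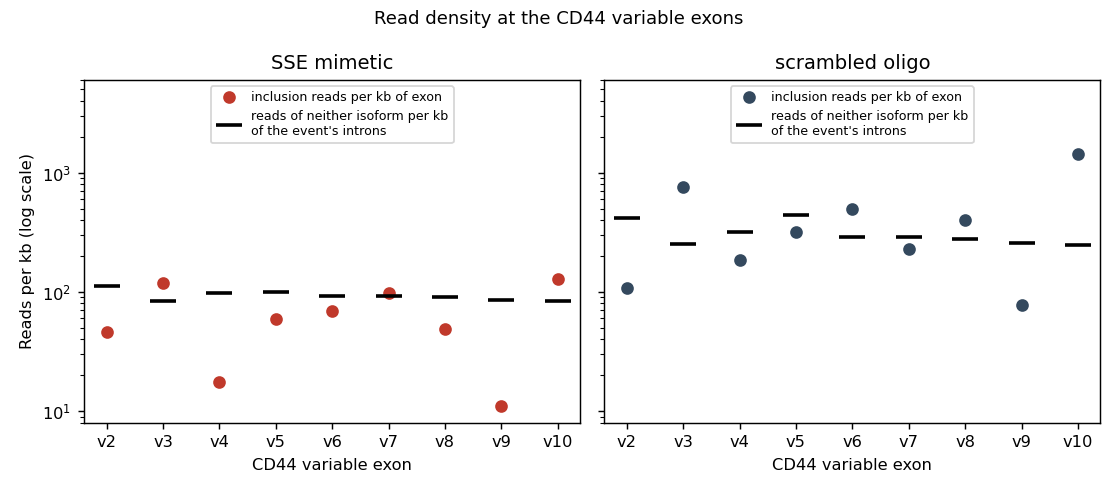
Inclusion reads per kb of exon (points) and reads of neither isoform per kb of the event's introns (bars) at the 9 CD44 variable exons, on a log y axis, SSE mimetic left and scrambled oligo right. With the SSE mimetic v3, v7 and v10 lie above their bar, v7 by little (98.5 against 92.7 per kb). With the scrambled oligo v3, v6, v8 and v10 do.

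Constant CD44 exons were at the high end. The tested CD44 exon with the largest difference was a 63-nt constant exon (chr11:35214852-35214914), which follows the variable region. Its Ψ was 0.62 (0.44 to 0.87) in the mimetic pool and 0.93 (0.86 to 0.98) in the scrambled pool. It had 38 inclusion, 0 skipping and 234 shared reads in the mimetic pool and 661, 1 and 2473 in the scrambled pool. The Bayes factor of the authors' deposited table was 3.91, so the exon was not called. By the approximate limit of 3 divided by the number of reads, 0 of 38 skipping reads allow a skipping share of up to 7.89%. The difference of -0.31 rests on shared reads, as the 2-isoform model gave -0.0275 without them. A 134-nt exon near the start of the gene had a Ψ of 0.80 (0.59 to 0.97) in the mimetic pool and 0.99 (0.98 to 1.00) in the scrambled pool. It had 75 and 646 inclusion reads in the same order and 0 skipping reads in either pool, and with a Bayes factor of 0.88 in the authors' deposited table it was not called. A 79-nt exon further downstream was at 0.99 in the mimetic pool and 1.00 in the scrambled pool.

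ENAH encodes Mena, a regulator of actin filament growth, and exon 11a is its epithelial exon. The exon had 2 inclusion and 7 skipping reads in the mimetic pool, and 0 and 46 in the scrambled pool. Its Ψ was 0.19 (0.06 to 0.40) in the mimetic pool and 0.01 (0.00 to 0.04) in the scrambled pool. Skipping was the main form in both pools. By the approximate limit of 3 divided by the number of reads, 0 of 46 allows an inclusion share of up to 6.52% in the scrambled pool. The Bayes factor of the authors' deposited table was 3.22. The 2 reads are a density of 31.7 per kb of exon, beside 37.1 reads per kb in the introns of the event in the same pool. The exon was under the read minimum and could not be tested. The ENAH exons of 12 and 57 nt had 0 inclusion reads and 3 skipping reads in the mimetic pool, and 0 and 9 in the scrambled pool.

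CTNND1 encodes p120 catenin, which holds cadherins at the cell surface. Its exon with the first start codon (chr11:57791385-57791673, 289 nt) had a Ψ of 0.07 (0.03 to 0.12) in the mimetic pool and 0.16 (0.12 to 0.20) in the scrambled pool. It had 7 inclusion and 4 skipping reads in the mimetic pool and 63 and 31 in the scrambled pool. Inclusion was 63.6% (Clopper-Pearson 30.8% to 89.1%) of these reads in the mimetic pool and 67.0% (56.6% to 76.4%) in the scrambled pool. Shared reads per inclusion read were 13.7 in the mimetic pool and 4.37 in the scrambled pool. In the authors' deposited table the Bayes factor was 4.65 and the difference -0.09, so the exon was not called. The 72-nt exon after it had a Ψ of 0.86 in the mimetic pool and 0.87 in the scrambled pool, from 9 and 74 inclusion reads, and was under the minimum. A second event of this exon, with another upstream neighbour, had 11 inclusion and 0 skipping reads in the mimetic pool and 68 and 9 in the scrambled pool, which meets the minimum. Its Ψ was 0.52 (0.25 to 0.80) in the mimetic pool and 0.65 (0.54 to 0.77) in the scrambled pool, with a Bayes factor of 0.57 in the authors' deposited table, short of a call. Of the exons known as A, B and C, exon A (63 nt) was kept, with a Ψ of 0.92 (0.74 to 0.99) in the mimetic pool and 0.95 (0.92 to 0.98) in the scrambled pool. Exon B (87 nt) was at 0.06 in both pools, and exon C (18 nt) at 0.14 in the mimetic pool and 0.06 in the scrambled pool, both under the minimum. Exon B had 0 inclusion and 7 skipping reads in the mimetic pool and 3 and 33 in the scrambled pool. Exon C had 0 inclusion reads in either pool, beside 6 and 11 skipping reads in the same order.

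EXOC7 encodes Exo70, a subunit of the exocyst that tethers vesicles at the plasma membrane. Its switch exon 7 (chr17:76091143-76091235, 93 nt) had a Ψ of 0.14 (0.05 to 0.27) in the mimetic pool and 0.11 (0.06 to 0.16) in the scrambled pool. There were 3 inclusion and 10 skipping reads in the mimetic pool and 15 and 45 in the scrambled pool, which are shares of 23.1% (Clopper-Pearson 5.04% to 53.8%) and 25% (14.7% to 37.9%). The exon was not called, and no difference was detectable at this depth. The tested EXOC7 exon with the largest difference was a neighbouring 146-nt exon (chr17:76089175-76089320). Its Ψ was 0.87 (0.64 to 1.00) in the mimetic pool and 0.56 (0.43 to 0.70) in the scrambled pool, and the Bayes factor of the authors' deposited table was 6.73. It had 28 inclusion, 0 skipping and 35 shared reads in the mimetic pool and 92, 0 and 282 in the scrambled pool. As at the APLP2 153-nt exon, the pools differed in shared reads per inclusion read, 1.25 in the mimetic pool and 3.07 in the scrambled pool. The 69-nt form of exon 8 was at 0.07 in both pools, and a 185-nt exon at 0.96 in the mimetic pool and 0.97 in the scrambled pool.

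The other switch exons had too few reads for a test. NUMB encodes an adaptor that limits Notch signalling, and its switch exon lengthens the proline-rich region (chr14:73279281-73279424, 144 nt). That exon had 3 inclusion and 0 skipping reads in the mimetic pool and 10 and 3 in the scrambled pool, for a Ψ of 0.39 (0.14 to 0.79) and 0.21 (0.11 to 0.37). Its 33-nt exon in the phosphotyrosine-binding domain had a Ψ of 0.43 (0.13 to 0.85) in the mimetic pool and 0.31 (0.20 to 0.44) in the scrambled pool. MAP3K7 encodes the kinase TAK1, and its exon 12 (chr6:90544552-90544632, 81 nt) had 1 inclusion and 1 skipping read in the mimetic pool and 2 and 6 in the scrambled pool. SLK encodes a kinase of cell migration, and its exon 13 (chr10:104010816-104010908, 93 nt) had 1 inclusion and 6 skipping reads in the mimetic pool and 3 and 46 in the scrambled pool. The Ψ of the SLK exon was 0.11 (0.02 to 0.30) in the mimetic pool and 0.03 (0.01 to 0.06) in the scrambled pool. All of these intervals meet between the pools.

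Tested exons of NUMB were a 75-nt exon and a 294-nt exon, neither of them called. The 75-nt exon had a Ψ of 0.85 (0.62 to 0.99) in the mimetic pool and 0.95 (0.87 to 0.99) in the scrambled pool. The 294-nt exon was at 0.85 in the mimetic pool and 0.93 in the scrambled pool. CSNK1G3 encodes a casein kinase 1 isoform, and which of its 6 exons is the switch exon was not settled from the sources used here. Its tested exon, of 425 nt, was at 0.96 (0.88 to 1.00) in the mimetic pool and 0.98 (0.95 to 1.00) in the scrambled pool. Its 24-nt exon had 0 inclusion and 8 skipping reads in the mimetic pool and 2 and 26 in the scrambled pool, with a Ψ of 0.09 in both pools.

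Among the 31 member exons under the minimum, 3 passed the Bayes factor and the difference, which over all such exons was 1.02%. A 105-nt exon in the 5′ part of NUMB had 2 inclusion and 0 skipping reads in the mimetic pool and 0 and 14 in the scrambled pool. Its Ψ was 0.56 (0.20 to 0.89) in the mimetic pool and 0.04 (0.00 to 0.12) in the scrambled pool. A 41-nt exon of CSNK1G3 had 2 and 37 inclusion reads in the same order, no skipping reads, and a Ψ of 0.49 (0.11 to 0.86) and 0.96 (0.85 to 1.00). A shorter, 180-nt form of the CTNND1 start codon exon had 3 inclusion and 4 skipping reads in the mimetic pool and 51 and 31 in the scrambled pool. Its Ψ was 0.05 (0.01 to 0.12) in the mimetic pool and 0.20 (0.14 to 0.25) in the scrambled pool. The mimetic pool values of all 3 rest on 7 isoform-specific reads or fewer. In MAP3K7, a 116-nt exon had 6 inclusion reads in the mimetic pool and 97 in the scrambled pool, with no skipping reads. Its Ψ was 0.74 (0.42 to 0.93) in the mimetic pool and 0.99 (0.95 to 1.00) in the scrambled pool. The remaining exons under the minimum, in NUMB, EXOC7, CTNND1 and CSNK1G3, differed by -0.36 (NUMB, 100 nt) to 0.31 (CSNK1G3, 96 nt). Their Bayes factors in the authors' deposited table reached at most 1.79 (CTNND1, 119 nt).

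**Figure D4:**
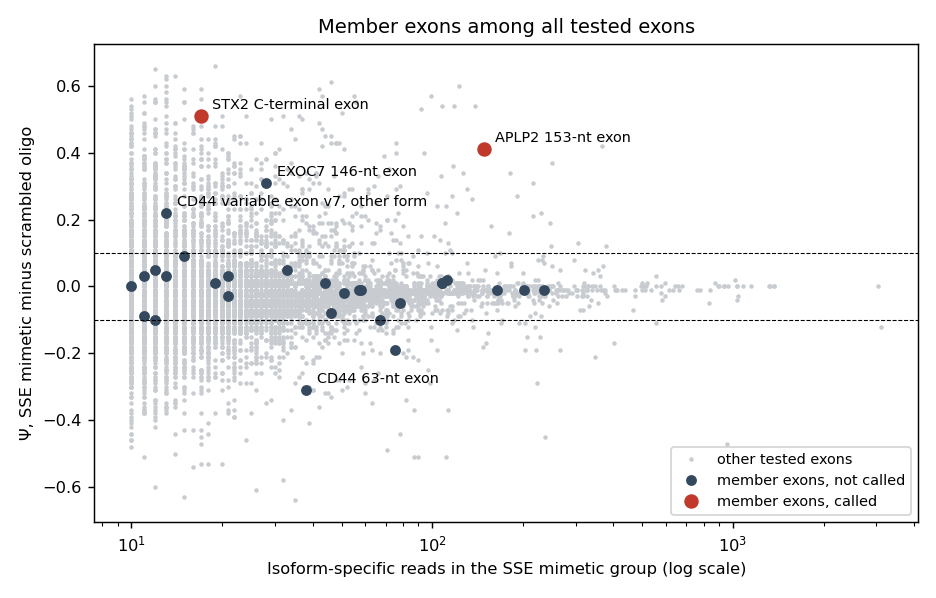
Difference in Ψ (y axis, SSE mimetic minus scrambled oligo) against isoform-specific reads in the mimetic pool (log x axis) for all 8228 tested exons (grey) and the 30 of the 10 genes (dark, or red where called). Dashed lines mark differences of 0.1. The called exons of STX2 (0.51) and APLP2 (0.41) lie at the upper edge, and 22 of the 30 lie between the lines.

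Other genes of the same programme were described with the same criteria. A list of 36 further genes with known epithelial-mesenchymal switches had 62 tested exons in 22 genes, of which 0 were called higher and 2 lower (3.23%), with a median difference of -0.015. A list of 15 splicing regulators of the programme, 1 of which is also on the first list, had 26 tested exons in 9 genes, with 0 called higher and 1 lower (3.85%) and a median of -0.01. Over both lists this is 2 of 82 exons, or 2.44%, against 3.99% of all tested exons in either direction. By direction, the lists had 2.44% lower and 0 exons higher, against 0.887% lower and 3.1% higher over all tested exons. These shares were not compared by a test. No exon of the lists passed Fisher's exact test after adjustment (3 of the 82 had an unadjusted p under 0.05). The exons called lower were in SEC31A, a coat protein gene of vesicles leaving the endoplasmic reticulum, and in MBNL1, a splicing regulator that is on both lists. In these lists known switch exons were not told apart from other exons of the same genes. The SEC31A exon (124 nt) had a Ψ of 0.34 (0.17 to 0.55) in the mimetic pool and 0.94 (0.82 to 1.00) in the scrambled pool. The MBNL1 exon (154 nt) had a Ψ of 0.56 (0.32 to 0.83) in the mimetic pool and 0.96 (0.88 to 1.00) in the scrambled pool. Neither exon had a skipping read in either pool, with 12 inclusion reads each in the mimetic pool and 131 and 177 in the scrambled pool. Fisher's exact test cannot pass an exon without skipping reads, whatever its Ψ, so it does not bear on these calls. Skipping reads were likewise absent from both pools at 9 of the 30 tested member exons and at 54.8% of all tested exons.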

How the data were processed

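Total RNA of 4 samples, 2 per group, was column-purified with DNase treatment and made into libraries with ScriptSeq v2 reagents, per the labels' protocols. Per the submitters' processing notes, the tools included STAR 2.7 and the build was hg38. Per the file headers, the deposited tables are MISO skipped-exon summaries, 1 per group, and 1 comparison. Their Ψ and interval bounds are fractions, the deposited Bayes factor is a ratio of evidence, and reads per class are given as text by the authors. Not given in the sources used here are the MISO version, event set, read length and way of pooling.

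Where several events shared a skipped exon, the 1 richest in isoform-specific reads was kept, giving 39120 exons, of which 8228 had 10 or more such reads in both groups and were tested. Calls used the deposited Bayes factor and difference. Inclusion and skipping reads were compared by two-sided Fisher's exact test (SciPy 1.17.1), adjusted over all tested exons. Neither is a test across samples. Described in full were the known switch exons, every called member exon and each gene's tested exon with the largest difference. The genes, lists and exons were chosen with earlier results of these data known. Ψ was also refitted with a 2-isoform likelihood, tested on simulated data. Among the read lengths tried, 76 nt best matched the authors' Ψ (Pearson r across exons 0.997 in the mimetic pool, 0.999 in the scrambled pool). Other read minimums, thresholds and choices of event were tried as alternatives.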

Additional observations from a re-analysis of the deposited data

How the results depend on the processing

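No paired analysis was possible because each group is 1 pooled read set, and for the same reason no sample could be left out. Of the member exons, 1 rather than 2 was called higher with a minimum of 20 reads, which drops STX2 (17 reads in the mimetic pool), and 1 by adjusted Fisher's exact test with the same minimum difference of 0.1, which drops the APLP2 153-nt exon. A Bayes factor of 100, a difference of 0.2 and both other choices of event called the same 2. With no minimum, 3 were called higher (NUMB, 105 nt, added). With a minimum of 20 reads, 0 member exons passed Fisher's exact test. Called lower were 1 member exon with a minimum of 5 (CTNND1, 180 nt), 2 with no minimum (CSNK1G3, 41 nt, added) and 1 with intervals that do not meet (CD44, 134 nt), against 0. In the other switch genes and regulators, 1 exon was called higher with a minimum of 5, with none and with intervals that do not meet, against 0. Called lower there were 0 with a minimum of 20, 1 with a Bayes factor of 100 and 0 by Fisher's exact test, against 2. Of all exons, 139 were called higher with a minimum of 20, 430 with none, 126 with a Bayes factor of 100 and 67 by Fisher's exact test, against 255. Called lower were 115 with a minimum of 5, 45 with 20, 214 with none, 38 with a Bayes factor of 100 and 0 by Fisher's exact test, against 73. Of the 83 exons that passed Fisher's exact test, 16 differed in Ψ by less than 0.1 and so are in neither count. Where reads were fewer or exons were added, the count moved by construction. The same holds for the exons called lower in SEC31A and MBNL1 under Fisher's exact test, which cannot pass an exon without skipping reads. Otherwise the cause was not tested. The 2-isoform models were chosen after seeing the data. For the STX2 exon they gave a difference of 0.524 on all reads, 0.547 after subtraction of intron reads and 0.475 without shared reads, so its direction and size held in all 3. Without shared reads the difference of the CTNND1 289-nt exon was -0.0189, against -0.09 as deposited, and those of CD44 v2 and v3 were 0.277 and 0.189, against 0.05 each. Without them the difference of the EXOC7 146-nt exon was -0.0328, that of CD44 v6 -0.137 and that of CD44 v8 -0.109, against values above 0 as deposited. For CD44 v10 it was -0.0409 after subtraction of intron reads, and for CD44 v2 and v3 it was 0.00769 and 0.00136 after the same subtraction. The share of inclusion reads was taken as it stands, since no read length is given to normalise it. With so few reads in the mimetic pool (median 19 isoform-specific), depth limits what can be seen at most member exons.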
